A study of Mus musculus with 6 samples.

Results

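Microexons, taken as annotated exons of 3 to 27 bases, were examined in the genes that the mouse aortic valve expressed. The members were the rows of the exon-level RPKM table (reads per kilobase of exon, scaled to the library total) with that length, counted once per gene and position, in protein-coding genes with a gene RPKM of at least 1 in all 6 libraries. They were thus chosen by length, gene type and the measured RPKM of the gene, while the value of the exon itself chose none of them. This left 4730 microexons in 3059 genes, out of 387776 unique exons in the table and 248881 in expressed genes of any type. At the edge of the gene threshold, the lowest library stood at 1.005 RPKM in the last gene kept (Gm14408) and at 0.9953 RPKM in the first one left out (Mroh8). At the edge of the length threshold were 456 microexons of 27 bases inside and 352 exons of 28 bases outside.

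The study sequenced RNA of aortic valves from wild type C57BL/6J mice at postnatal day 2 (PND2), when the leaflets are still growing, and at 4 months of age. Each age had 3 libraries, each from the pooled valves of 5 to 6 mice, and no mouse carried a deletion, a transgene or a treatment according to the labels. The p-values below therefore measure the spread between pools, and in whole valves fewer cells of a type cannot be told apart from less RNA per cell, nor a change in the cells present from a change of splicing within a cell type. Library totals ran from 23810507 to 38994657 reads.

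Most exons are recognised by the splicing machinery through signals within and around them, and an exon as short as a microexon leaves little room for such signals. Microexons therefore tend to depend on strong neighbouring introns and on dedicated RNA-binding proteins, of which Srrm4 is the best known in neurons, while Rbfox, Mbnl, Celf and Ptbp proteins act in muscle and many other tissues. A microexon whose length is a multiple of 3 adds or removes a few amino acids without shifting the reading frame, often on the surface of a protein or between its domains. Neurons use microexons most, and striated muscle is the other tissue known for them.

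The microexons on which the results turn are printed here with 12 exonic bases on each side, read from the GENCODE M21 transcripts (GRCm38, the same assembly as mm10) in the direction of transcription. Capitals mark the microexon and lower case the ends of the exons it is joined to in an annotated transcript. Each line thus shows an annotated join, which need not be the one used most in the RNA. The first set holds the 5 microexons that overlap no other exon of their gene and passed the test between the ages, at chrX:74232967-74232990 (minus strand, Flna), chr1:73936332-73936355 (minus, Tns1), chr1:91073324-91073341 (plus, Lrrfip1), chr10:33444054-33444074 (plus, Trdn) and chr17:34315556-34315579 (plus, H2-Eb1). All 5 are internal coding exons.
Flna: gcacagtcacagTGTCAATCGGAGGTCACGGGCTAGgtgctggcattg
Tns1: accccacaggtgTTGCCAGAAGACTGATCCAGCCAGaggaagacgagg
Lrrfip1: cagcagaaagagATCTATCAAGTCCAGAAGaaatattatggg
Trdn: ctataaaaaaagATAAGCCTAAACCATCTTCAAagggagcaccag
H2-Eb1: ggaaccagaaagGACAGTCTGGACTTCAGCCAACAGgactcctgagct

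The second set holds internal coding microexons of muscle and cytoskeletal genes with separate values at the 2 ages, which did not pass the test and were chosen after their values were seen. They lie at chr7:67244521-67244544 (minus, Mef2a), chr1:34296742-34296759 (plus, Dst), chr3:142304705-142304722 (minus, Pdlim5), chr1:135845507-135845519 (plus, Tnnt2, 13 bases) and chr1:135850379-135850387 (plus, Tnnt2, 9 bases).
Mef2a: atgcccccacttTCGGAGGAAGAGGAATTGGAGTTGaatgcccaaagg
Dst: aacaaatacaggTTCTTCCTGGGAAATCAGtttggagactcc
Pdlim5: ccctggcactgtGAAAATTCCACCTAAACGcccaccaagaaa
Tnnt2, 13 bases: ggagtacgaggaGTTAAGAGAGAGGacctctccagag
Tnnt2, 9 bases: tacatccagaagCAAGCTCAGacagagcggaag

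The third set shows microexons of well-known regulated genes in which no read was counted in any of the 6 libraries, at chr2:157458843-157458860 (plus, Src), chr13:83654598-83654621 (plus, Mef2c), chr4:136563438-136563449 (minus, Kdm1a) and chr7:112856053-112856064 (plus, Tead1).
Src: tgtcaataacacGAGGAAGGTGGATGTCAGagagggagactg
Mef2c: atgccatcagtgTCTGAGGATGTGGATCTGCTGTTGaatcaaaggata
Kdm1a: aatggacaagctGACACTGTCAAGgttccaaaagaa
Tead1: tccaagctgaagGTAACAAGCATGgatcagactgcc

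Most annotated microexons were not separate cassettes. Of the 4730, 3734 overlapped another exon of the same gene, and 3227 of these were the first or last exon of the transcripts that hold them, short ends of transcript models that lay within or across longer exons. Another 996 microexons, in 793 genes, overlapped no other exon of their gene. Of these, 699 in 542 genes were internal and coding, 206 were transcript ends, and the others were untranslated, in non-coding transcripts or not matched to the annotation. The 699 internal coding microexons are the class in which the value of the exon can be read by itself. Their length was a multiple of 3 in 460 cases (65.8%), against 40.7% of the 78066 internal coding exons of 28 bases or longer that overlapped no other exon of their gene.

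**Figure D1:**
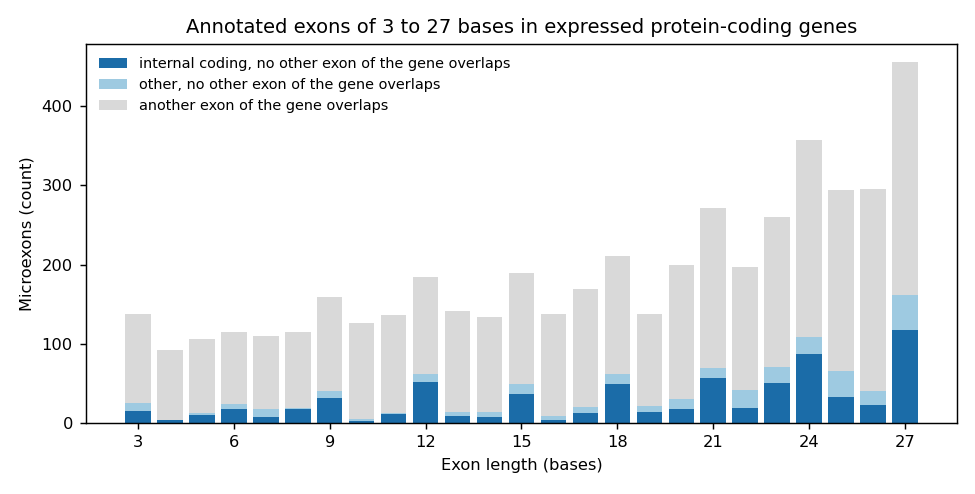
Number of annotated microexons (vertical axis, count) at each exon length (horizontal axis, bases). Dark blue bars are internal coding microexons that overlap no other exon of their gene (699 in all), light blue bars the remainder of the 996 without overlap, and grey bars the 3734 that overlap another exon; the dark bars peak at multiples of 3, most clearly at 12, 18, 21, 24 and 27 bases.

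For 244 of the 699 internal coding microexons, some transcript model directly joined the 2 exons that flank the microexon in its chosen transcript. Only such a join is counted here as annotated skipping. A microexon left out together with a neighbour, or between other exons, is not counted. Of these 244, 226 (92.6%) had a length that was a multiple of 3, against 51.4% of the 455 without such a join, some of which may be skipped in other ways. In the 6 libraries 92 of the 244 had no read, against 95 of the 455. Since the classes differ in length, the exon RPKM over gene RPKM is given within a length class, as a description that was not tested. At 25 to 27 bases the median was 0.320 over 43 microexons with annotated skipping and 1.69 over 130 without it, and at 22 to 24 bases it was 0.287 over 49 and 1.28 over 107.

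The level of a microexon is given throughout as its RPKM divided by the RPKM of its gene in the same library, a ratio in which a change of the whole gene cancels. Reads of about 50 bases reach past both ends of a short exon, so a microexon present in every transcript has a ratio well above 1, and the ratio is not a percentage of inclusion. Junction reads, from which that percentage would be taken, were not analysed here. The ratio is thus compared between ages for the same exon, not between exons of different length.

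Over the internal coding microexons, reads were rarer the shorter the exon. At 3 to 6 bases, 9 of 45 had at least 1 read in the 6 libraries, at 16 to 18 bases 66.7%, at 25 to 27 bases 93.6%, and at 28 to 40 bases, just above the limit, 95.8%. The median ratio at PND2 and 4 months was 0 and 0 at 3 to 6 bases, 0.275 and 0.219 at 19 to 21 bases, and 1.78 and 1.33 at 25 to 27 bases. At the shortest lengths an aligner can fail to place a read across 2 nearby junctions, so a microexon with no read was not detected by this alignment and may still be present in the RNA. By mean ratio, 187 of the 699 (26.8%) had no read, 107 (15.3%) lay between 0 and 0.1, 116 (16.6%) from 0.1 to 0.5, 161 (23.0%) from 0.5 to 2 and 128 (18.3%) at 2 or more.

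**Figure D2:**
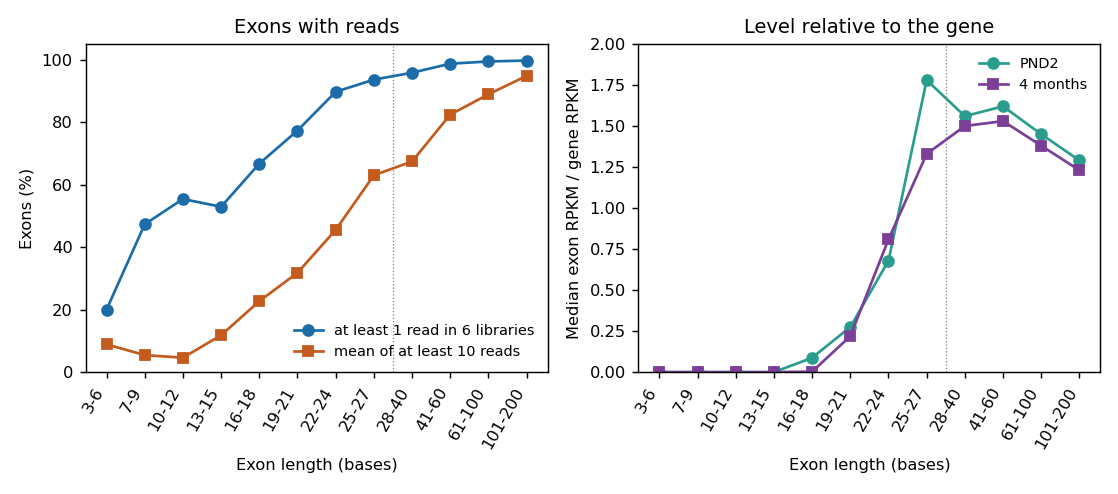
Left, percentage of internal coding exons without overlap that had at least 1 read (blue circles) or a mean of at least 10 reads (orange squares) over the 6 libraries, by exon length in bases. Right, median exon RPKM over gene RPKM at PND2 (green circles) and 4 months (purple squares); the dotted line marks the 27-base limit, and the blue curve climbs from 9 of 45 exons at 3 to 6 bases to 93.6% at 25 to 27 bases.

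The ages were compared with limma on the log2 of the ratio, with 1 read-equivalent added to the exon, over all 217345 exons of expressed genes that had a mean of at least 10 reads, and p-values were adjusted over all of them by the Benjamini-Hochberg method. Of the 4730 microexons, 2383 reached that read minimum, 1824 had fewer reads and 523 had none. Among the 2383, 337 reached the minimum while having fewer than 10 reads on average at 1 of the ages. The median log2 change of the tested microexons was -0.07 (4 months over PND2), against -0.03 over all tested exons.

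Few exons of any kind were called in limma, and a microexon that was not called may still differ between the ages. At an adjusted p under 0.05 in limma, 3 of the 2383 tested microexons rose and 5 fell from PND2 to 4 months (0.336%). The background was 0.134 percent over all exons (0.0534 percent higher and 0.0805 percent lower). The 8 calls were Flna, Tns1, Lrrfip1, Trdn and H2-Eb1 among the 283 tested microexons without overlap (1.77%), and Fcgr2b, Gsn and Tnnt1 among the 2100 tested microexons with overlap (0.143%). The share over long internal coding exons without overlap was 0.0945%. Of the 8, 5 (Lrrfip1, Trdn, H2-Eb1, Fcgr2b and Tnnt1) had fewer than 10 reads on average at 1 age and so reached the read minimum through the other age. At an unadjusted p under 0.05 in limma were 208 of the 2383 (8.73%), beside 11.6 percent of all exons. Leaving out 1 library at a time left 7 microexons called without PND2 replicate 1, 1 without 4-month replicate 2 and 0 without each of the other 4 libraries. In those 4 fits 140 to 184 of the 2383 microexons were at an unadjusted p under 0.05, beside 19261 to 23180 of all 217345 exons.

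Other procedures called from 0 to 76 microexons. Without a trend in the variance, with the replicate number as a block and with an unequal-variance test 0 were called. At an unadjusted p under 0.05 in these fits were 282, 154 and 133 of 2383 microexons, beside 23455, 21210 and 15851 of all 217345 exons. With 0.5 read-equivalents 7 were called and with 5 read-equivalents 10. Over the median of the other exons of the gene 14 of 2380 microexons were called (0.588%), beside 0.489 percent of all exons tested that way. Over the 2 flanking exons it was 9 of 467 (1.93%), beside 0.335 percent. By diffSplice it was 76 of 2381 (3.19%), beside 0.996 percent, and by diffSplice with voom weights 12 of 2381 (0.504%), which lay below the 0.674 percent of all exons. An adjusted p under 0.1 with a change over 2-fold was reached by 15 of 2383, beside 0.205 percent of all exons. Of the 8 calls, 7 were also called over the median of the other exons, 4 over the flanking exons, 7 by diffSplice and 5 by diffSplice with voom weights.

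A second count needs no test. Values of the 2 ages did not overlap and the log2 change was over 2-fold for 86 tested microexons, 29 higher and 57 lower at 4 months (3.61%), beside 2.00 percent of all exons (0.673 percent higher and 1.33 percent lower). Among the 239 tested internal coding microexons without overlap it was 10 higher and 19 lower (12.1%), with a median of 40.5 reads, against 88.3 reads in long internal coding exons, where the share was 2.00%. Of the 239, 58 reached the read minimum while having fewer than 10 reads on average at 1 age, against 3533 of 71992 long exons. Reaching the minimum through 1 age favours separate values, and an exon with fewer reads varies more between libraries. The part of both in the larger share was not tested.

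**Figure D3:**
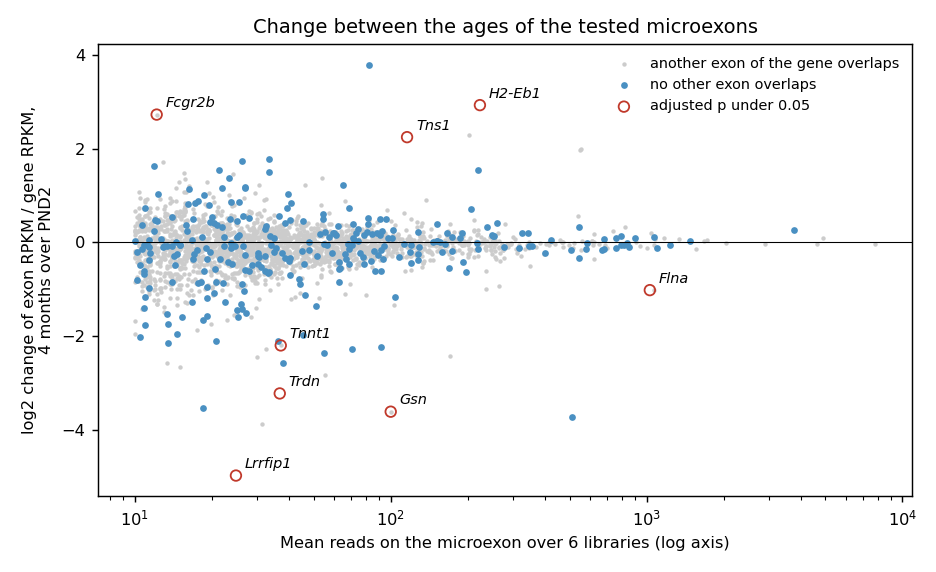
Log2 change of exon RPKM over gene RPKM from PND2 to 4 months (vertical axis) against the mean number of reads on the microexon over the 6 libraries (horizontal axis, log scale) for the 2383 tested microexons. Grey dots overlap another exon of their gene, blue dots do not, and red circles mark the 8 with an adjusted p under 0.05; the spread narrows to the right, where Flna lies at -1.02.

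The lowest adjusted p among the 8 was in Flna, which encodes filamin A, a protein that crosslinks actin filaments and links them to integrins, and which is mutated in an inherited valve disease. Its 24-base microexon had a ratio of 1.72, 1.79 and 1.83 in the PND2 libraries and of 0.873, 0.912 and 0.856 in the 4-month libraries. Each age was thus tight and the ages lay far apart, at 1.78 ± 0.0561 and 0.880 ± 0.0285 (SD, n = 3). The ratio fell by 1.02 on the log2 scale (SE 0.04, limma adjusted p = 0.00764), with an adjusted p of 0.0946 by diffSplice with voom weights.

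This microexon was read 866, 1180 and 863 times at PND2 and 1602, 760 and 908 times at 4 months, the most of any called microexon. The gene itself rose from 703 ± 184 to 1680 ± 321 RPKM (log2 change 1.27, limma adjusted p = 0.00506). The number of reads on the microexon was therefore similar at both ages while the other exons of Flna gained reads. The exon on its 5′ side had a log2 change of -0.03 and the exon on its 3′ side one of -0.02. Against these flanking exons the log2 change was -0.99 (limma adjusted p = 4.9e-05), and the annotation has 4 transcripts that skip the microexon.

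Tns1 encodes tensin 1, which ties integrins at focal adhesions to actin. Its 24-base microexon had a ratio of 0.213, 0.173 and 0.195 at PND2 and of 1.08, 1.04 and 0.796 at 4 months. The adult values were all several times the postnatal ones, 0.974 ± 0.155 against 0.194 ± 0.0201 (SD, n = 3). The ratio rose by 2.25 on the log2 scale (SE 0.16, limma adjusted p = 0.0261).

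Reads on the Tns1 microexon went from 21, 17 and 15 to 327, 159 and 156, while the gene rose from 116 ± 15.5 to 295 ± 36.5 RPKM. Its neighbours did not follow. The 93-base exon on the 5′ side had a log2 change of -0.14, and the 39-base exon on the 3′ side fell by 1.98 on the log2 scale (limma adjusted p = 0.0273). The 2 adjacent short exons of Tns1 therefore moved in opposite directions with age, and 1 annotated transcript skips the microexon. Smooth muscle markers, 6 of 6 of which rose, summed to 7180 to 8270 RPKM at PND2 and 16500 to 27700 RPKM at 4 months, and their part in the Flna and Tns1 values was not tested.

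Lrrfip1 encodes a protein that binds Flightless-1 and nucleic acids. Its 18-base microexon was read 49, 42 and 57 times at PND2 and 1, 0 and 0 times at 4 months, which gave ratios of 0.687, 0.730 and 1.11 against 0.0167, 0 and 0. The microexon was thus close to absent from adult valves, although the gene was still expressed at 80.9 ± 7.16 RPKM, against 101 ± 3.51 RPKM at PND2. Pooled over the libraries of each age, the ratio was 109 times lower at 4 months, with an exact 95% counting interval (Clopper-Pearson) of 19.2 to 4330 because a single adult read stands on one side. The fitted log2 change was -4.97 (SE 0.31, limma adjusted p = 0.0206) and depends on the read-equivalent added.

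The 48-base exon 3′ of the Lrrfip1 microexon had a log2 change of -3.21 (limma adjusted p = 0.0687), and the 87-base exon on the 5′ side one of 0.24. The microexon and the exon after it were thus both low in adult valves, although the second did not pass the threshold. Against the flanking exons, a comparison chosen after seeing the data, the microexon stayed called (log2 change -4.92, limma adjusted p = 7.4e-05). The exon on the 5′ side had ratios of 1.38 at PND2 and 1.64 at 4 months, and the exon on the 3′ side 0.618 and 0.0652. The flanking value therefore rests mainly on the 5′ exon, and the microexon was not tested against the 3′ exon alone.

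Trdn encodes triadin, which anchors calsequestrin to the ryanodine receptor at the calcium store of striated muscle. Its 21-base microexon had a ratio of 2.67, 2.59 and 1.79 at PND2 and of 0.101, 0.199 and 0.201 at 4 months. The groups did not overlap, and the mean went from 2.35 ± 0.486 to 0.167 ± 0.0572 (SD, n = 3), a fall of 3.22 on the log2 scale (SE 0.23, limma adjusted p = 0.0261). Gene RPKM was 41.3 ± 10.3 at PND2 and 19.7 ± 9.26 at 4 months.

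The exons on either side of it had log2 changes of -2.50 and -1.97 without passing the test (limma adjusted p = 0.130 and 0.319), and against them the microexon was not called (limma adjusted p = 0.653). Trdn holds 7 microexons without overlap, and the other 5 that were tested all had negative log2 changes, from -2.10 to -0.89, with none called. The cardiomyocyte markers, read in the same libraries, summed to 7540 to 9260 RPKM at PND2 and 4120 to 7860 RPKM at 4 months, and their part in the Trdn values was not tested.

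H2-Eb1 encodes a beta chain of MHC class II, which presents peptides to CD4+ T cells. Its 24-base microexon was read 1, 0 and 0 times at PND2 and 605, 304 and 429 times at 4 months. The gene was low at PND2, with 4.41 ± 0.587 RPKM, and at 218 ± 27.4 RPKM in the adult. The ratio was 0.252, 0 and 0 at PND2 and 2.71, 2.70 and 2.97 at 4 months. The 111-base exon on its 5′ side had a log2 change of 0.63 (limma adjusted p = 0.139). Unlike in Flna and Tns1, no annotated transcript joined the neighbours of the H2-Eb1, Lrrfip1 or Trdn microexon directly. A 24-base microexon of H2-Ab1 that overlaps another exon had 6, 1 and 0 reads at PND2 and 566, 262 and 375 at 4 months. It was not called (log2 change 2.29, limma adjusted p = 0.318).

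With the adult ratio, 29.1 reads in all would have fallen on the H2-Eb1 microexon at PND2, where 1 was found. The pooled ratio was thus 29.1 times higher at 4 months, with an exact 95% counting interval of 5.21 to 1150, and the fitted log2 change was 2.93 (SE 0.28, limma adjusted p = 0.0414). This call was lost with other amounts added to the exon: the log2 change was 3.75 with 0.5 read-equivalents (limma adjusted p = 0.0668) and 0.83 with 5 (0.0950). The macrophage markers summed to 46.7 to 60.3 RPKM at PND2 and 99.4 to 124 RPKM at 4 months, and their part was not tested.

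**Figure D4:**
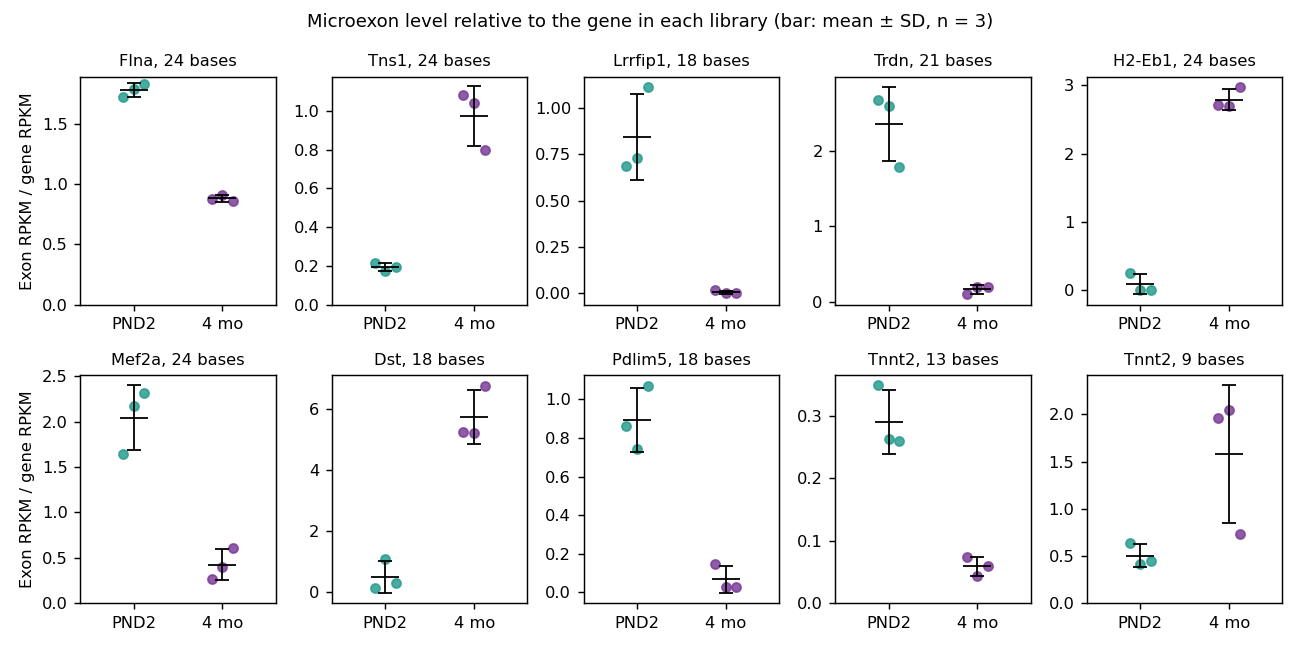
Exon RPKM over gene RPKM (vertical axes, linear) of 10 microexons in each library at PND2 (green) and 4 months (purple), with the mean and SD of 3 libraries. The upper 5 passed the test and the lower 5 did not; in Flna the PND2 libraries lie between 1.72 and 1.83 and the adult libraries between 0.856 and 0.912, while the adult libraries of the 9-base Tnnt2 microexon spread from 0.736 to 2.05.

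The 3 called microexons that overlap another exon of their gene need more care, because a read on the longer exon is counted on both. In Fcgr2b, an inhibitory Fc receptor of myeloid and B cells, a 21-base internal coding microexon had no read at PND2 and 30, 22 and 21 reads at 4 months, where its ratio was 3.09, 3.88 and 3.27. At that ratio 19.7 reads would have been counted at PND2. With 3 reads over the PND2 group put in place of the count of 0, the ratio was 6.56-fold higher at 4 months (limma adjusted p = 0.0419). This is not a lower bound, since the exact 95% counting interval of the fold change (Clopper-Pearson) starts at 5.20. The call was lost with 5 read-equivalents (log2 change 0.61, limma adjusted p = 0.376) and over the median of the other exons (2.14, 0.0752).

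In Gsn, which encodes the actin-severing protein gelsolin, a 25-base transcript end had a ratio of 0.275, 0.518 and 0.369 at PND2 and of 0.0343, 0.0276 and 0.0307 at 4 months. Reads on this end were similar at the ages, 81, 134 and 101 against 123, 62 and 99, while the gene went from 338 to 4020 RPKM. The ratio fell by 3.61 on the log2 scale (limma adjusted p = 0.0233), so this end did not share in the adult gain of Gsn.

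In Tnnt1, which encodes slow skeletal troponin T, a 13-base transcript end had 96, 69 and 58 reads at PND2 and none at 4 months, where the gene had dropped from 58.7 to 3.73 RPKM. At the PND2 ratio 12.5 reads would have been counted at 4 months. With 3 reads put in place of the count of 0, the ratio was 4.16-fold lower (limma adjusted p = 0.0386). The exact 95% counting interval of the fold change starts at 3.35. The fitted change vanished when 5 read-equivalents were added (log2 change 0.05). Skeletal muscle markers summed to 924 to 1380 RPKM at PND2 and 261 to 573 RPKM at 4 months, and their part was not tested.

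The microexons described next belong to genes with a role in muscle and the cytoskeleton, did not pass the test and were picked for their values. The part of the cardiomyocyte and skeletal muscle markers, whose sums stand above with Trdn and Tnnt1, was not tested for these either. Mef2a encodes a MADS-box transcription factor of muscle, and its 24-base microexon is the alternative exon called beta. The ratio was 1.64, 2.17 and 2.32 at PND2 and 0.266, 0.396 and 0.603 at 4 months, with all adult values below all postnatal ones. The log2 change was -2.28 (SE 0.31, limma adjusted p = 0.0899), while gene RPKM was 76.8 ± 1.67 and 67.4 ± 3.18. Against its flanking exons, whose own log2 changes were -0.09 and -0.12, the Mef2a microexon passed the threshold (log2 change -2.17, limma adjusted p = 0.00741), an alternative chosen after seeing the data. The microexon of the related Mef2c, of the same length and without any read, could have had a ratio of at most 0.0578 (3 reads over the 6 libraries).

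Pdlim5 encodes a PDZ-LIM protein of the muscle Z-disc. Its 18-base microexon had a ratio of 0.864, 0.743 and 1.07 at PND2 and of 0.148, 0.0297 and 0.0277 at 4 months, where only 6, 1 and 1 reads were found. The log2 change was -3.53 (SE 0.53, limma adjusted p = 0.108) with gene RPKM near equal at 65.3 ± 6.14 and 69.4 ± 9.11, and against the flanking exons it passed (log2 change -3.21, limma adjusted p = 0.0186). The flanking exon on the 5′ side, in the transcript printed above, was a 15-base microexon with a ratio of only 0.0241 and 0.155. The 173-base exon on the 3′ side had 2.18 and 1.75, so the flanking value rests mainly on that exon. Of the other 4 Pdlim5 microexons without overlap, 3 had no read at all.

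Tnnt2 encodes cardiac troponin T, whose isoforms switch after birth, and 2 of its microexons had log2 changes of opposite sign. The 13-base microexon had a ratio of 0.350, 0.263 and 0.260 at PND2 and of 0.0743, 0.0428 and 0.0590 at 4 months (log2 change -2.23, SE 0.24, limma adjusted p = 0.0547). The 9-base microexon had one of 0.640, 0.417 and 0.449 at PND2 and of 1.96, 2.05 and 0.736 at 4 months (log2 change 1.54, SE 0.43, limma adjusted p = 0.280). Neither passed, the third adult library lay close to the PND2 values for the 9-base exon, and the 2 exons were not tested against each other. The exons around both had log2 changes between -0.09 and 0.04. Against them the 13-base microexon passed (log2 change -2.24, limma adjusted p = 8.8e-04) and the 9-base microexon did not (1.51, limma adjusted p = 0.110). Gene RPKM of Tnnt2 was 1360 ± 59.1 and 549 ± 114.

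Slc8a1, the sodium-calcium exchanger, has a run of small exons that are combined differently in heart and other tissues. Its 21-base microexon at chr17:81442203-81442223 had a mean ratio of 0.850 ± 0.133 and 0.360 ± 0.254, its 18-base microexon 0.594 ± 0.184 and 1.00 ± 0.464, and its 15-base microexon 0.524 ± 0.174 and 0.237 ± 0.225 at PND2 and 4 months. None passed, with limma adjusted p from 0.427 to 0.604. A further 21-base microexon of Slc8a1 had no read in any library.

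Dst encodes dystonin, a spectraplakin that links cytoskeletal filaments. Its 18-base microexon had a ratio of 0.110, 1.08 and 0.280 at PND2 and of 5.25, 5.21 and 6.76 at 4 months. The ages were far apart, but the second PND2 library stood well above the other 2, and the log2 change of 3.79 had an SE of 0.66 (limma adjusted p = 0.140). Relative to its flanking exons the Dst microexon passed the threshold (log2 change 3.27, limma adjusted p = 0.00621). Another 18-base microexon of Dst had 5 reads over the 6 libraries.

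The flanking exons of these microexons differed from gene to gene. In Flna, Mef2a and both Tnnt2 microexons the neighbours had log2 changes between -0.12 and 0.04, and in Dst between 0.47 and 0.59. In Tns1 and Lrrfip1 the exon on 1 side had a log2 change of -1.98 and -3.21, and in Trdn both neighbours had negative log2 changes that did not pass the test.

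**Figure D5:**
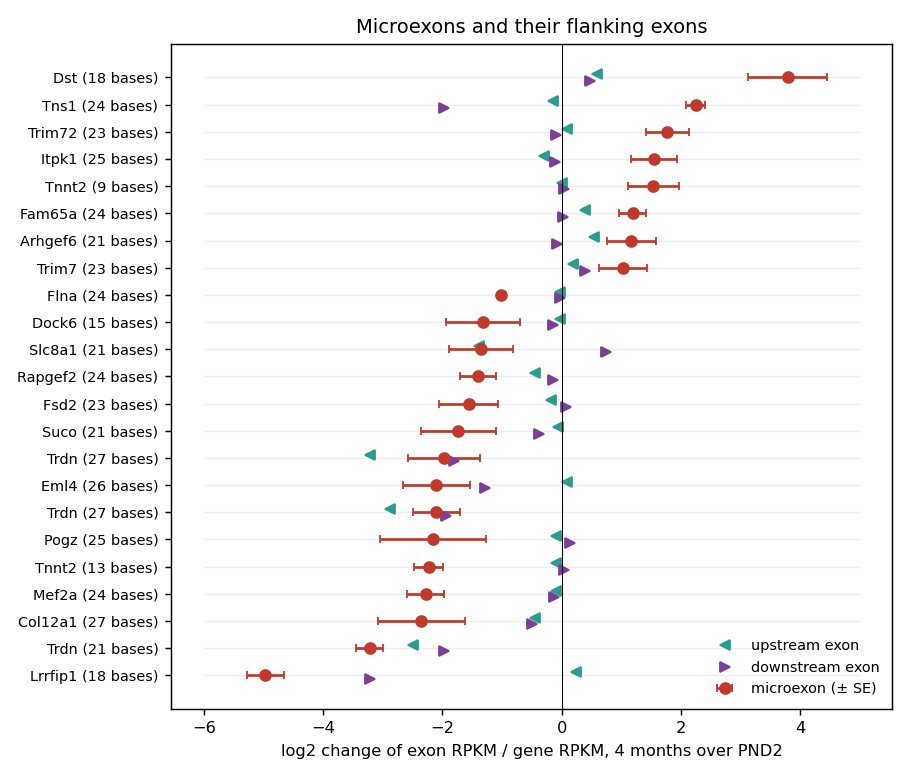
Log2 change of exon RPKM over gene RPKM from PND2 to 4 months (horizontal axis) for 23 microexons without overlap (red circles, bars are the SE) and for the annotated exons on their 5′ side (green triangles) and 3′ side (purple triangles). For Flna, Mef2a and Tnnt2 the triangles stay near 0 while the microexon does not, and for the Trdn microexons the triangles also lie to the left of 0.

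Other microexons whose ages were separate and over 2-fold apart, named here for their values, came from genes of varied function and had limma adjusted p from 0.182 to 0.325. Higher at 4 months were those of Trim72, a membrane repair protein of muscle (ratio 0.504 ± 0.334 and 2.18 ± 0.114), and Itpk1, an inositol phosphate kinase (0.434 ± 0.192 and 1.77 ± 0.656). Lower at 4 months were those of the microtubule-binding protein Eml4 (1.71 ± 0.0551 and 0.320 ± 0.285), the fibril-associated collagen Col12a1 (2.90 ± 0.471 and 0.579 ± 0.698) and the septin Sept7 (0.561 ± 0.236 and 0.120 ± 0.0450). For Trim72 and Itpk1 the PND2 value rests on 1 to 4 reads per library, and for Col12a1 and Eml4 the adult value on 0 to 6. The Itpk1 microexon also overlaps an exon of another gene, so reads of that gene may be counted on it.

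Collagen genes held 54 of the microexons, in 17 genes. Collagen triple helices are coded by exons built from repeats of 9 bases, one Gly-X-Y triplet each, and 30 of the 39 internal coding collagen microexons without overlap had a length that was a multiple of 9, 26 of them of 27 bases. Of these 39, 28 in 10 genes were tested and 0 were called in limma, beside 0.134 percent of all exons. At an unadjusted p under 0.05 were 4 (14.3%), beside 11.6 percent, while 2 were called by diffSplice (7.14%, beside 0.996 percent) and 0 by diffSplice with voom weights (0.674 percent). Their median log2 change was -0.13, beside -0.08 over the tested internal coding microexons, with a range from -2.35, in the Col12a1 microexon named above, to 1.15. The 14 with a mean of at least 200 reads stayed between -0.34 and 0.42.

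A 27-base exon of Col6a2, a chain of the microfibrillar collagen VI, had a ratio of 6.17 ± 0.482 at PND2 and 6.09 ± 0.491 at 4 months, and 1 of Col6a1 had ratios of 2.71 ± 0.0571 and 2.49 ± 0.0519. The limma adjusted p-values were 0.974 and 0.324. Col4a1, the basement membrane collagen, and Col18a1, the source of endostatin, held further 27-base exons of this kind. Col23a1, a transmembrane collagen, had the most microexons without overlap of any gene, 9, of which 7 were tested with log2 changes from -1.59 to -0.11 and none called, at a gene RPKM of 20.8 and 5.25.

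Some other heavily read microexons differed little between the ages. The 18-base exon of Atp2a2, the calcium pump SERCA2 of heart muscle, had ratios of 3.12, 3.61 and 3.22 at PND2 and 3.48, 3.67 and 3.04 at 4 months (log2 change 0.03, SE 0.09, limma adjusted p = 0.940). The 23-base exon of Myom1, the M-band protein myomesin, had 3.60 ± 0.131 and 3.94 ± 0.398, and the 25-base exon of Bsg, the membrane glycoprotein basigin, 3.63 ± 0.128 and 3.52 ± 0.305. For these exons the ages overlapped or lay within the spread of the libraries. Others with many reads did not lie as close, without passing the test. An 11-base internal coding exon of Tnnt2 that overlaps another had ratios of 3.70 ± 0.547 at PND2 and 1.90 ± 0.799 at 4 months (log2 change -1.02, SE 0.29, limma adjusted p = 0.293), and a 19-base transcript end of Ly6c1, a surface protein of endothelial and myeloid cells, had 7.23, 3.91 and 3.79 and then 18.5, 19.1 and 19.7 (log2 change 1.98, limma adjusted p = 0.0749).

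Genes known for regulated microexons, a list of 84, gave 203 microexons in 75 genes, of which 64 were tested, 0 rose (0.0534 percent of all exons) and 1 fell, the Tnnt1 end described above (0.0805 percent). Among the 95 that overlapped no other exon of their gene, 33 had no read, 53 had fewer than 10 on average and 9 were tested. Of the 9, 0 were called in limma (0.134 percent of all exons) and 4 were at an unadjusted p under 0.05 (44.4%, beside 11.6 percent). By diffSplice 4 were called (44.4%, beside 0.996 percent), by diffSplice with voom weights 3 (0.674 percent) and against the flanking exons 3 (0.335 percent). In the ages-separate count, Dst and the 9-base Tnnt2 exon were higher at 4 months and Mef2a and the 13-base Tnnt2 exon lower.

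Several well-known microexons of this list had no read. The neuronal exon of the tyrosine kinase Src had no read, which allows a ratio of up to 0.0567 with 3 reads over the 6 libraries, and the same held for the histone demethylase Kdm1a (up to 0.0433) and the Hippo pathway factor Tead1 (up to 0.0503). The 24-base exon of Cpeb4, a regulator of poly(A) tails, had 1 read in all. These limits cover counting error only. The neuron markers summed to 14.6 to 24.6 RPKM at PND2 and 9.98 to 18.7 RPKM at 4 months, with none of the 8 at 0 in all libraries.

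A few of the listed genes used their microexon at both ages. The 24-base exon of Clasp1, a microtubule plus-end protein, had a ratio of 5.53 ± 1.25 at PND2 and 4.03 ± 1.21 at 4 months. The 24-base exons of the spectrin Sptan1 (3.48 ± 0.292 and 3.23 ± 0.217) and of the clathrin adaptor Picalm (1.07 ± 0.275 and 1.33 ± 0.158) were likewise read in every library. None of these 3 passed, with limma adjusted p of 0.586, 0.716 and 0.610.

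Of the shortest microexons, 3 to 9 bases long, 261 were tested and 0 were called in limma (0.134 percent of all exons). At an unadjusted p under 0.05 were 19 (7.28%, beside 11.6 percent), and 12 were called by diffSplice (4.60%, beside 0.996 percent) and 1 by diffSplice with voom weights (0.674 percent). Only 12 of the 261 overlapped no other exon, and the most heavily read ones were short transcript ends inside longer exons, as in Vim (6 bases, intermediate filament vimentin), Pam (8 bases, a peptide-amidating enzyme), Atp5j2 (9 bases, ATP synthase), Crip2 (7 bases, a LIM protein), Slmap (8 bases, a membrane protein of muscle) and Igf2 (4 bases, a fetal growth factor). Their limma adjusted p ran from 0.433 to 0.937. Vim had a ratio of 9.17 ± 1.13 and 8.92 ± 0.333, and in Igf2 the adult libraries gave 4.41, 4.99 and 0 on 12, 9 and 0 reads. In Cbr2, a carbonyl reductase, a 9-base internal coding exon that overlaps another had ratios of 3.11, 1.99 and 2.11 at PND2 and of 3.53, 3.65 and 3.05 at 4 months (limma adjusted p = 0.413).

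Internal microexons this short could be read in a few muscle and actin genes. The 6-base exon of Cfl1, the actin-severing protein cofilin, had ratios of 0.903 ± 0.0916 at PND2 and 0.960 ± 0.0613 at 4 months (limma adjusted p = 0.824). Mybpc3, cardiac myosin-binding protein C, has a pair of 3-base exons, the shortest that the rule admits, with mean ratios of 0.407 ± 0.245 and 0.121 ± 0.148 for one and 1.07 ± 1.23 and 0.156 ± 0.237 for the other. The first PND2 library and the third differed by several times for the second exon, at 0.413 and 2.49, so neither pair of ages was separate (limma adjusted p = 0.535 and 0.454).

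Values were also split by the position of the microexon within its gene, as a description that was not tested. The median log2 change of the tested microexons was -0.08 in the 5′ part of the gene, -0.10 in the middle and -0.05 in the 3′ part, with the genomic span of the gene cut into 3 equal parts, beside -0.06, -0.05 and -0.00 over all tested exons.

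RNA-binding proteins known to control such exons were taken from a list of 30, of which 28 were tested at the gene level (limma on log2(RPKM + 0.1)). Of these, 5 rose and 12 fell, beside 35.8 percent of all genes called, 14.7 percent higher and 21.1 percent lower over 25903 genes, whose median log2 change was -0.14. Mbnl1, the muscleblind protein that promotes adult splicing patterns, rose from 16.9 ± 1.22 RPKM at PND2 to 58.9 ± 1.37 RPKM at 4 months (log2 fold change 1.79, limma adjusted p = 3.7e-05). Rbfox1, Celf2, Khdrbs3 and Srrm4 also rose, Srrm4 from 0.394, 0.488 and 0.754 RPKM to 1.01, 1.82 and 1.68 RPKM (limma adjusted p = 0.0230), and without PND2 replicate 1 or 2 or 4-month replicate 2 or 3 its adjusted p lay between 0.0591 and 0.0783.

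Among those that fell were regulators of striated muscle splicing. Rbm24 fell from 72.5 ± 5.80 to 29.1 ± 8.03 RPKM and Rbm20, which controls titin splicing, from 47.8 ± 5.20 to 18.7 ± 4.42 RPKM (limma adjusted p = 0.00186 and 0.00124). Ptbp1, a repressor of neuronal and muscle exons, went from 64.3 ± 9.65 to 46.2 ± 4.04 RPKM (limma adjusted p = 0.0313), and after scaling to the median gene this was 0.0527. Rbfox2, Mbnl2 and Qk were not called. The log2 changes of Rbm24 and Rbm20 were -1.35 and -1.37, beside a median of -0.99 over the cardiomyocyte markers. The part of the muscle cells present in these values was not tested. Whether any of these proteins acts on the microexons described was not tested either.

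Markers of the cell types that a valve sample can hold shifted between the ages as well. Beside the smooth muscle rise, valve endothelial markers, 4 of 4 lower, summed to 257 to 344 and 164 to 166 RPKM. Of the 6 interstitial and matrix markers 1 rose and 4 fell, while their sum was 4140 to 4870 RPKM at PND2 and 5270 to 6530 RPKM at 4 months. None of the tissue's markers was at 0 in all libraries. Cardiomyocyte markers (1 of 8 higher, 4 lower) were present at both ages. The adipocyte list had 3 of 4 higher, the Schwann list 2 of 4 higher and the erythroid list none called. The part of these shifts in the microexon values was not tested.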

How the data were processed

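RNA was isolated from pooled aortic valves of wild type mice at PND2 and 4 months, 3 libraries per age, and made into stranded libraries. The authors aligned reads with TopHat 2.1.0 to mm10, counted them per exon and gene with easyRNASeq on Ensembl 83, and deposited RPKM values; whether counting used strand is not given in the sources used here. Exon RPKM times length came out as whole reads for 100.0% of values (within 0.01), which gave library totals of 23810507 to 38994657; intervals and floors cover counting error only. Of the 4730 microexons, 200 overlapped an exon of another gene on either strand, and reads of that gene may be counted on them. Junction reads were not used here.

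Exon RPKM plus 1 read-equivalent was divided by gene RPKM and tested on the log2 scale with limma 3.58.1 (R 4.3.3; lmFit, eBayes with a trend on mean reads, two-sided, Benjamini-Hochberg) over 217345 exons with gene RPKM of at least 1 in all libraries and a mean of at least 10 reads. A count model on the recovered reads was possible but was not used. An alternative was diffSplice on log2 values, with and without voom weights on the recovered reads. Genes were tested on log2(RPKM + 0.1). Tested on simulated data over these 217345 exons, the fit found 99.5% of 200 exons planted at 4-fold, with 9 false calls. The simulated reads had a single assumed spread for all exons and a constant gene RPKM. Changes were planted only in exons with more reads than the minimum of the test. The share found therefore does not measure how many changes of that size the fit finds in the real libraries. Of the 4730 microexons, 4640 (98.1%) were matched to GENCODE M21 by gene and coordinates. Named microexons were those called without overlap, called members of a list of 84 genes, and the most heavily read of 3 to 9 bases; microexons outside this rule were picked for their values, as the text says where it names them. The members, lists and rules were chosen with earlier results of these data known. Same-numbered libraries had correlations of deviations from -0.0275 to 0.0113, so the numbers were not taken to pair them. Intronic sequence was not analysed here.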

Additional observations from a re-analysis of the deposited data

How the results depend on the processing

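The counts of calls depended strongly on how the spread was estimated, and the causes were not tested. Adding a block or leaving out a library also removes residual degrees of freedom, and the part of this was not tested. The 8 called microexons and 291 called exons in all became 0 and 5 without the variance trend. They became 0 and 0 both with the replicate number as a block and with an unequal-variance test. In that order, 282, 154 and 133 microexons were at an unadjusted p under 0.05, beside 23455, 21210 and 15851 of all 217345 exons. Leaving out 1 library at a time gave 0 to 7 microexons and 0 to 140 exons. In these leave-one-out fits Flna was called in 2 of 6, H2-Eb1, Lrrfip1 and Gsn in 1 and Tns1, Trdn, Tnnt1 and Fcgr2b in 0, with log2 changes from -1.04 to -0.99 for Flna, 2.16 to 2.38 for Tns1, -5.19 to -4.76 for Lrrfip1, -3.40 to -3.12 for Trdn and 2.68 to 3.24 for H2-Eb1.

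More exons were called with other denominators or tools: 14 microexons (7 of the 8 among them) and 1036 exons over the median of the other exons, 76 (7) and 2121 by diffSplice, 12 (5) and 1436 by diffSplice with voom weights, and 9 (4) and 386 over the flanking exons, the last chosen after seeing the data. With 5 read-equivalents 552 exons were called, with a mean of at least 50 reads 4 microexons, at an adjusted p under 0.1 with a 2-fold change 15, and among microexons without overlap, and the internal coding ones of these, 5. The median ratio of tested microexons, 2.71 at PND2 and 2.51 at 4 months, was 2.12 and 1.96 without overlapping members, and 0.671 and 0.637 when length was extended by the read length; leaving out a library gave 2.65 to 2.73 and 2.48 to 2.53. Of 66 regulators and microexon genes, 39 were called, and 25 to 37 without 1 library; the block gave 29 and median scaling 33.

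Directions turned for Tnnt1 (log2 change 0.05) and Igf2 (0.05) with 5 read-equivalents, for Igf2 without 4-month replicate 3 (0.02; range without 1 library -1.53 to 0.02), Vim without PND2 replicate 1 (0.07; -0.09 to 0.07) and Crip2 without PND2 replicate 2 (0.01; -0.14 to 0.01), for Atp5j2 by diffSplice (0.36), and for 2 Trdn microexons of 27 bases over their flanking exons (0.12 and 0.29).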
